A study of Mus musculus with 2 samples.

Results

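Leydig cells were sought among the barcodes of mouse testis libraries by the transcripts of 6 genes: Cyp17a1, Cyp11a1, Hsd3b1, Hsd3b6, Star and Insl3. A barcode was chosen as a Leydig cell when it held at least 2 summed unique molecular identifiers (UMIs) of these genes and when these made at least 8 per 10000 of its UMIs. The rule chose 73 of 26466 barcodes, 24 of 13805 in one library and 49 of 12661 in the other. The levels of the 6 marker genes were therefore selected on and are given below as a description only.

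The study kept 20 male C57 BL/6 mice, aged 5 weeks at the start, for 1 week of adaptation and then for 12 weeks on a maintenance diet (10 mice) or a diet with 60% of its energy from fat (10 mice). Its stated aim was to see how long-term fat feeding affects reproduction in pubertal males. Dissociated testis gave 2 libraries, 1 per group. One is labelled as high-fat; the title of the other gives its tissue and leaves out the diet, so it is called the diet-unnamed library. The labels do not say how many mice each library holds, name germ cells as the cell type although somatic cells were present, and give no treatment or allele beyond diet. With 1 library per group, "higher" and "lower" compare these libraries and not the diets.

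Leydig cells lie between the seminiferous tubules and make testosterone from cholesterol under the control of luteinising hormone. The Star protein moves cholesterol into mitochondria, where Cyp11a1 cuts its side chain, and 3-beta-hydroxysteroid dehydrogenase (Hsd3b1, Hsd3b6), Cyp17a1 and finally Hsd17b3 carry the product on to testosterone. Adult Leydig cells also secrete the peptide hormone Insl3 and express the luteinising hormone receptor Lhcgr.

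The diet-unnamed library held 207667609 UMIs with a median of 13024 per barcode, and the high-fat library held 201842085 with a median of 9772. No barcode had fewer than 1000 UMIs. The barcode names of the libraries are serial numbers, 1507 of which occur in both, so a shared name does not show a shared cell. Without replicate libraries no test was possible, and every interval below is a 95% interval that covers counting error only.

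The chosen cells were shallow. Their totals ran from 1014 UMIs (median 1503) to 6756 in the diet-unnamed library and from 1032 (median 1827) to 14214 in the high-fat library, with a median of 961 and 1141 genes seen. Together they held 57076 and 117106 UMIs. Marker UMIs were unevenly spread over these cells: the median cell held 5 of the marker UMIs in the diet-unnamed library and 3 in the high-fat library, while the richest held 143 and 47. That richest cell alone supplied 35.4% and 16.1% of the marker UMIs of all chosen cells. At the lower end, 7 of 24 and 25 of 49 cells carried 2 or 3 marker UMIs, and 4 and 8 cells carried UMIs of a single marker gene. At the upper end, 8 cells in each library carried 10 or more, and 5 and 10 cells carried UMIs of at least 4 of the 6 genes.

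**Figure D1:**
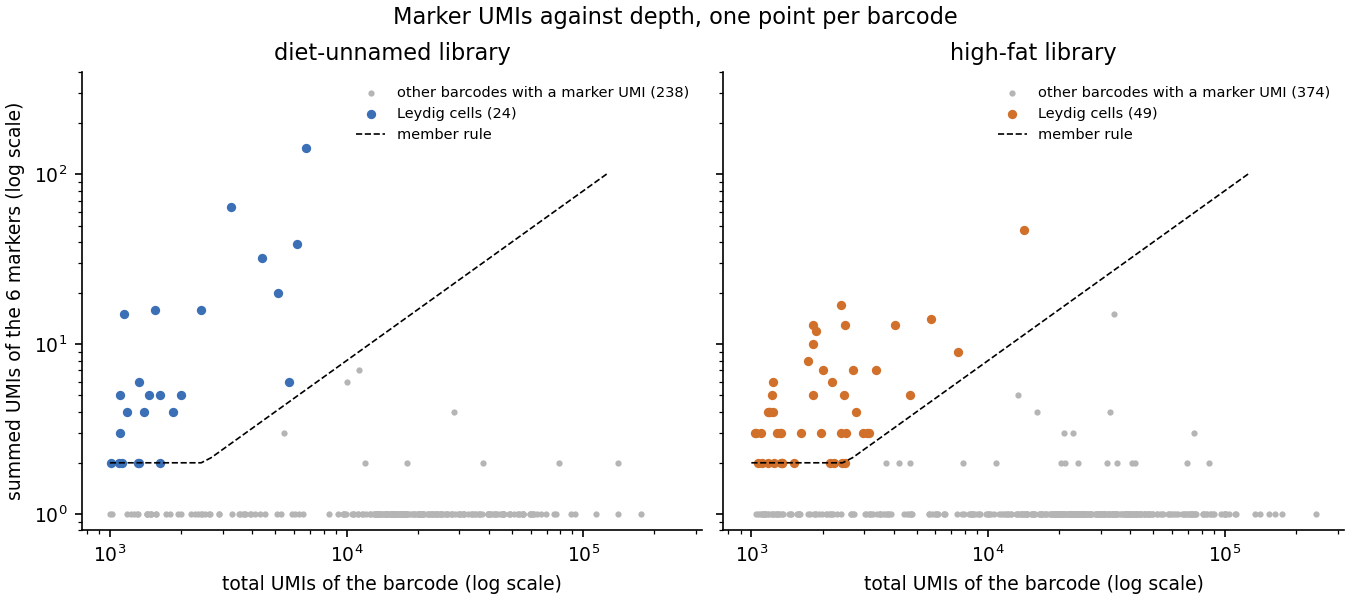
Each point is a barcode, with its total UMIs on the horizontal axis and the summed UMIs of the 6 marker genes on the vertical axis (both log scales); coloured points are the Leydig cells, grey points are other barcodes with a marker UMI, and the dashed line is the rule. The 24 and 49 chosen cells lie at the shallow end, and most grey points hold a single marker UMI in a deeper barcode.

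The rule left marker UMIs outside as well. The chosen cells held 404 of the 663 marker UMIs of the diet-unnamed library (60.9%) and 292 of 710 in the high-fat library (41.1%). Just inside the threshold stood a cell with 6 marker UMIs of 5720 (10.5 per 10000) in the first library and one with 2 of 2478 (8.07 per 10000) in the second. Just outside stood barcodes with 7 of 11297 (6.20 per 10000) and 2 of 3721 (5.37 per 10000). In all, 9 and 21 barcodes had at least 2 marker UMIs but too low a density, and 229 and 353 had 1 marker UMI.

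The name was checked against 9 Leydig genes that the rule did not use: Hsd17b3, Lhcgr, Fdx1, Fdxr, Sult1e1, Ptgds, Nr5a1, Agt and Aldh1a1. At least 1 of them was seen in 23 of 24 cells (95.8%, exact Clopper-Pearson interval 78.9 to 99.9) and in 47 of 49 (95.9%, 86.0 to 99.5). After thinning each cell to 1000 UMIs, which no cell fell short of, these shares were 95.8% and 83.7%. Sertoli barcodes, chosen by the same kind of rule from Sox9, Amh, Wt1, Cldn11, Rhox8 and Fshr, served as the background, with 269 and 412 barcodes at similar median depths of 1533 and 1921 UMIs. Of these, 66.9% and 71.4% showed a gene of the 9 (51.3% and 52.2% after thinning), so a single UMI of the set says little. The summed level separated the groups further: 12825 and 4500 CPM (UMIs per 1000000 UMIs of the group) in the Leydig cells against 998 and 1049 in Sertoli barcodes and 162 and 164 in all other barcodes. Stroma barcodes, chosen in the same way from Pdgfra, Dcn, Col1a1, Col1a2, Col3a1 and Lum, numbered 138 and 167. Of these, 57.2% and 71.3% showed a gene of the 9, and their summed level was 505 and 745 CPM.

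The 9 genes differed in how far Sertoli barcodes carried them too. Hsd17b3, the last enzyme on the way to testosterone, was seen in 8 of 24 and 5 of 49 Leydig cells, against 0 of 269 and 1 of 412 Sertoli barcodes. Sult1e1, the oestrogen sulphotransferase, was seen in 7 and 6 Leydig cells and in none of the Sertoli barcodes of either library. Lhcgr was seen in 3 Leydig cells of each library and likewise in no Sertoli barcode, where 0 of 269 and 0 of 412 allow a share of barcodes with a UMI of up to 1.12% and 0.728% (3 counts of the total), which does not limit cells that express the gene at this depth. Ptgds, the prostaglandin D synthase, was in 20 of 24 (83.3%) and 39 of 49 (79.6%) Leydig cells, but also in 117 of 269 and 206 of 412 Sertoli barcodes. Aldh1a1 was in 19 and 30 Leydig cells, in 85 and 117 Sertoli barcodes and in 42 and 78 stroma barcodes. Its level was 2418 and 632 CPM in Leydig cells, 272 and 183 in Sertoli barcodes and 256 and 398 in stroma barcodes. Fdx1, the electron donor of Cyp11a1, was in 12 and 24 Leydig cells and in 53 and 94 Sertoli barcodes, and Fdxr, its reductase, in 3 and 4 against 19 and 30. Nr5a1 did not separate the groups: it was in 4 Leydig cells of each library against 25 and 41 Sertoli barcodes, and in the high-fat library its level was 34.2 CPM (interval 9.31 to 87.5) in Leydig cells and 46.1 (34.2 to 60.7) in Sertoli barcodes.

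Cells with 10 or more marker UMIs were the richest in these independent genes. In the diet-unnamed library, the 9 genes made 44.2 per 10000 UMIs in cells with 2 or 3 marker UMIs, 73.6 in cells with 4 to 9 and 183 in cells with 10 or more. In the high-fat library the same bands gave 29.4, 47.6 and 62.2. Other barcodes held 1.62 and 1.64 per 10000. Ptgds carried the step between the lower bands: without it they gave 22.1, 19.8 and 58.1 in the first library and 16.3, 17.95 and 30.5 in the second, against 1.59 and 1.55 in other barcodes. Markers of spermatids, whose free RNA can reach other barcodes, were instead lowest in the band with 10 or more marker UMIs. Round and elongating spermatid markers made 41.9, 44.2 and 19.1 per 10000 in the bands of the first library and 131, 83.0 and 81.7 in those of the second. Single cells weighed on the second library: 1 cell held 76 round and 108 elongating of the 281 UMIs of its highest band. Of the 578 in its lowest band, single cells held 103 and 94 elongating UMIs. Over all chosen cells they stood at 36.8% and 90.0% of their whole-library level. The part of free germ-cell RNA in the differences between the libraries was measured only through an estimate that subtracts it.

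Some chosen cells went against the name. In the high-fat library 3 cells owed their place to Star alone: 14 of 5753 UMIs, 13 of 4040 and 2 of 2160, with 1, 3 and 1 UMIs of the 9 independent genes. The last of them also carried 32 UMIs of Sertoli markers. A marker list of another somatic type was richer than the 6 marker genes in 2 of 24 and 6 of 49 cells; Sertoli markers led in 1 and 5 of them. Lymphoid markers summed to 0 in every cell of the first library and to at most 1 UMI a cell in the second, and macrophage markers reached at most 2 UMIs a cell. Scrublet, a doublet caller, marked 1 and 0 of the chosen cells at its top 6% of scores.

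Among the 6 marker genes Cyp17a1 and Insl3 were the most abundant in the diet-unnamed library. Cyp17a1 stood at 2540 CPM (exact Poisson interval 2144 to 2989; 145 UMIs in 16 of 24 cells), and 1 cell held 52.4% of them. In the high-fat library it stood at 529 (406 to 679; 62 UMIs in 27 of 49 cells). Insl3 stood at 1787 against 666 CPM, Hsd3b1 at 1332 against 213, Hsd3b6 at 806 against 478 and Cyp11a1 at 368 against 231. These 5 genes were lower in the high-fat library, but Cyp11a1 and Hsd3b6 turned to log2 ratios of 0.47 and 0.39 when free RNA was subtracted. Star had the opposite order, 245 against 376 CPM (log2 ratio 0.62, interval -0.28 to 1.60), and without the 3 cells chosen on Star alone its log2 ratio was -0.63. Each of the 6 values is bound to the choice of cells.

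Hsd3b1 and Hsd3b6 encode closely similar enzymes, and how reads shared by both were assigned is not given in the sources used here. Most single cells with either gene carried UMIs of one alone. At least 1 of them was seen in 19 of 24 and 34 of 49 cells, but both were seen in 2 cells of each library. Hsd3b1 alone was seen in 10 and 9 cells and Hsd3b6 alone in 7 and 23. Among cells with at least 2 such UMIs the larger count was Hsd3b1 in 6 and 3 cells and Hsd3b6 in 5 and 9 cells, with a tie in 0 and 1. In those 11 and 13 cells the smaller count summed to 2 of 114 UMIs and 2 of 60.

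**Figure D2:**
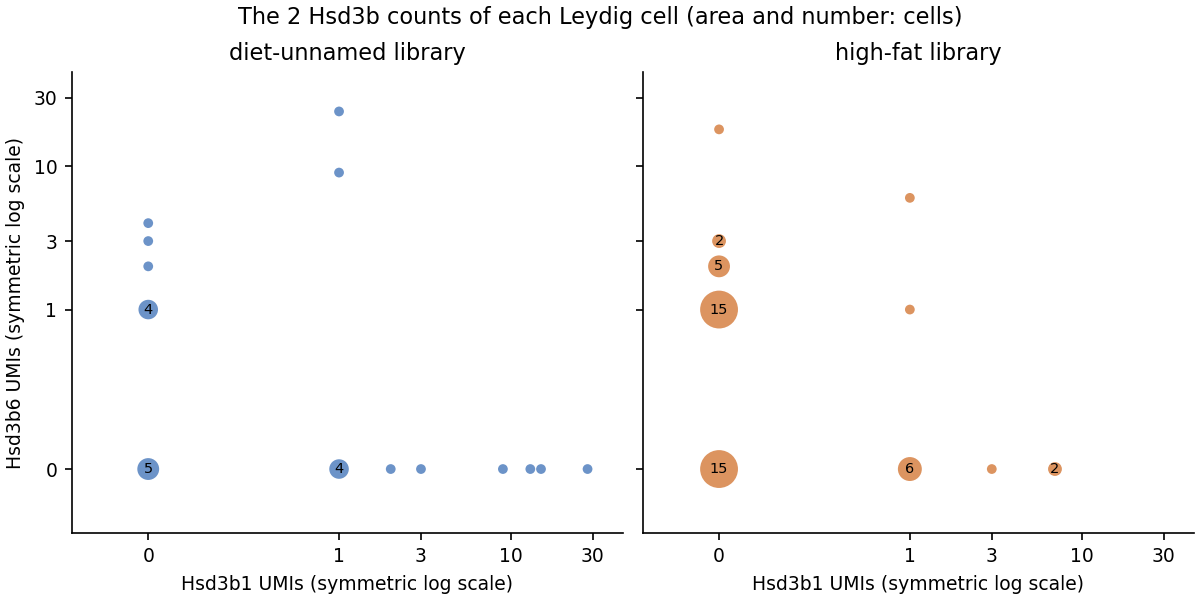
Each circle stands for Leydig cells with the given Hsd3b1 UMIs (horizontal axis) and Hsd3b6 UMIs (vertical axis), on symmetric log scales that include 0; area and the printed number give the cells. The cells lie along the axes, and 2 cells in each library have both.

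Other genes did not separate these cells in the same way in both libraries. Cells were grouped by the larger of both counts among those with at least 2 such UMIs. Cyp17a1, like both Hsd3b genes, is a marker gene that chose the cells, so its ratio is a description only. In the diet-unnamed library, the Hsd3b6 cells held 7348 CPM of Cyp17a1 and the Hsd3b1 cells 582, a ratio of 12.6 (exact conditional interval 6.96 to 25.2). A single cell held 76 of the 113 Cyp17a1 UMIs of the Hsd3b6 cells, and without it the ratio was 7.38 (3.76 to 15.5). In the high-fat library that ratio was 1.80 (0.561 to 9.24). For Jak3 it was 1.68 in the first library and 0.492 in the second, and for Lcn2 18.7 and 0.162, so the direction turned. Single cells weighed on these values as well. In the first library 1 cell held 128 of the 207 Lcn2 UMIs, and without it the ratio was 7.78. For Jak3, 1 cell held 1532 of the 1924 UMIs of the Hsd3b1 cells and another 1499 of the 2414 of the Hsd3b6 cells. Without the first of them the ratio was 5.78, and without both it was 3.91. Ptgds had ratios of 0.898 (0.733 to 1.10) and 1.34 (0.776 to 2.47), and 0.656 (0.494 to 0.861) in the first library without its richest cell.

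Beyond the marker genes, 112 of 981 genes (11.4%) were at least 4-fold higher in Leydig cells than in all other barcodes of both libraries, among genes with at least 10 UMIs in the Leydig cells of each. A gene rare elsewhere reached 10 UMIs, which are 175 and 85.4 CPM, only where it was far higher in Leydig cells, so this count is partly fixed by the filter and is a description. The median gene of the 981 was lower in Leydig cells, at log2 -0.25 and -0.30. Of the 112, 19 were at least 100-fold higher in both libraries, and 102 had the smaller fold in the high-fat library.

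The 15 most concentrated genes were, in order, Jak3, Bhmt, Fabp3, Akr1cl, Lcn2, Apoc1, Vcam1, Prlr, Ptgds, Tmem176a, Ephx1, Fxyd1, Ass1, Aldh1a1 and Gsta3. Ptgds stood at 8743 and 2400 CPM in Leydig cells, 2517 and 282 times its level in other barcodes. Its per-cell level ran from 0 (median 62.2) to 329 per 10000 in the first library and from 0 (median 9.08) to 156 in the second, so the ranges overlapped while the medians lay apart. Aldh1a1, which makes retinoic acid from retinaldehyde, stood at 2418 and 632 CPM. Fabp3, a fatty acid carrier, stood at 1962 and 965, and Akr1cl, an aldo-keto reductase, at 2208 and 828. Bhmt, which methylates homocysteine, stood at 631 and 316 CPM, and Prlr, the prolactin receptor, at 263 and 120. Subtracting free RNA, described below, turned the order of the libraries for 7 of the 15, Apoc1, Ass1, Vcam1, Bhmt, Fabp3, Tmem176a and Prlr, with log2 ratios of 0.42, 0.35, 0.30, 0.15, 0.12, 0.11 and 0.0078. It raised all 15 by nearly the same step, such as Jak3 from -1.80 to -0.66 and Gsta3 from -1.37 to -0.23. The genes that turned were those with the smallest gap before it. For Lcn2, an iron-siderophore binding lipocalin, and Ass1, an enzyme of arginine synthesis, a single cell of the first library supplied 61.8% and 63.6% of the UMIs.

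**Figure D3:**
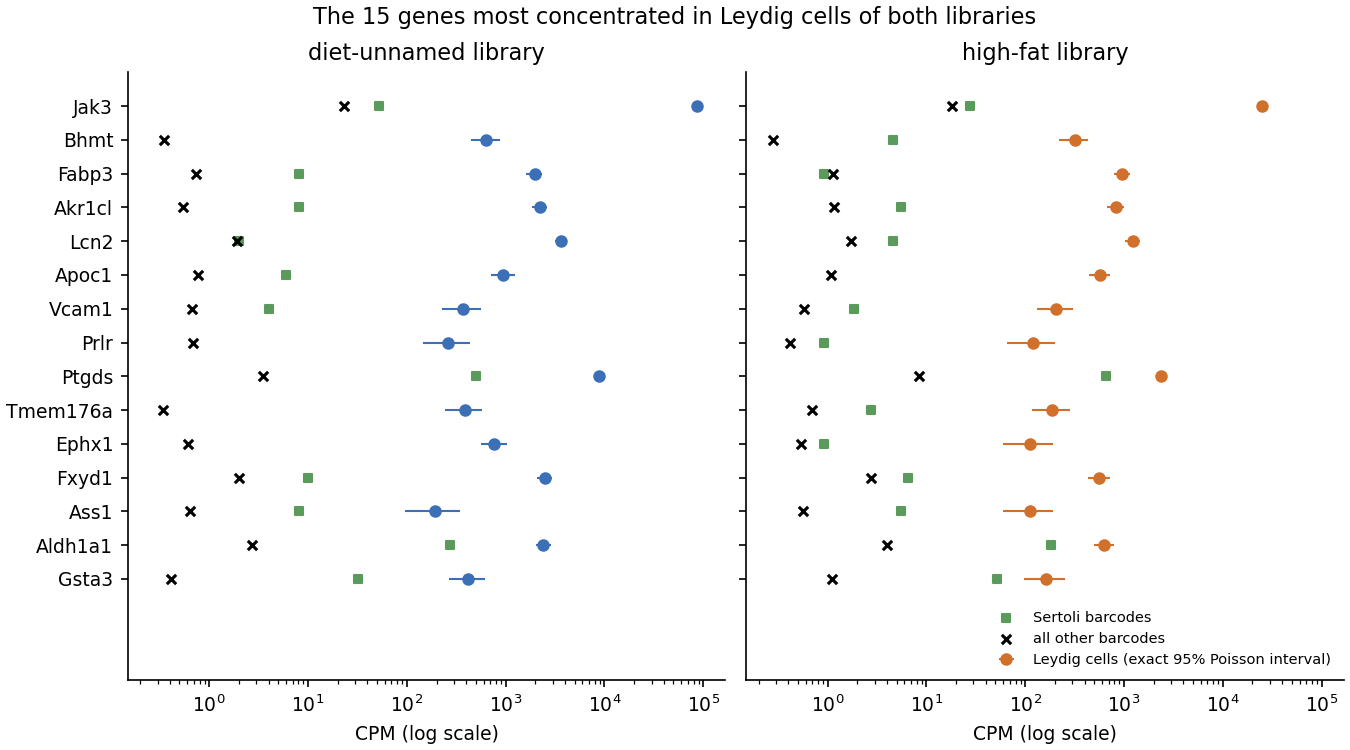
For each of the 15 genes, circles give CPM in Leydig cells with exact 95% Poisson intervals, squares the level in Sertoli barcodes and crosses the level in all other barcodes (log scale; a level of 0 is not drawn), one panel per library. In both panels each gene's circle lies to the right of its cross and square, by the least for Ptgds, Aldh1a1 and Gsta3 against Sertoli barcodes.

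By role, 6 of the 15 adult Leydig genes outside the marker rule reached 10 UMIs in both libraries (Ptgds, Prlr, Vcam1, Ephx1, Aldh1a1 and Lcn2), and 1 was at 0 in both. The lowest fold of the 6 over other barcodes was 384 (Prlr) in the first library and 157 (Aldh1a1) in the second. A gene rare elsewhere reaches 10 UMIs (175 and 85.4 CPM) only at a high fold, so these folds are partly fixed by the filter. The same filter applies to the other genes given with a fold below. The fetal Leydig list gave 3 and 5 UMIs in all, and 6 of its 8 genes (Thbs2, Mc2r, Cyp11b1, Dlk1, Gng13 and Ren1) were at 0. Those few UMIs were still 15.9 (interval 3.26 to 46.5) and 10.3 (3.34 to 24.2) times the level of the list elsewhere. At this depth a count of 0 does not show absence. Of 25 antioxidant genes 13 reached 10 UMIs. They included the glutathione transferases Gstm1, seen in 22 of 24 and 38 of 49 cells at 433 and 128 times its level elsewhere, and Gstm2, at 340 and 81.0 times. Of 40 oxidative phosphorylation genes 33 reached it, with a median log2 ratio over other barcodes of 0.43 and 0.016. At least 4-fold higher in both libraries were 5 of the 33, beside 112 of the 981 genes in all. One of these 5, Cox8a, a subunit of cytochrome c oxidase, stood at 19.6 and 8.21 times its level elsewhere. Among genes induced by dissociation and heat, the early response genes Fos, at 54.4 and 30.3 times, and Jun, at 34.9 and 20.8 times, were also far above their level elsewhere. Sertoli markers were present as well: Clu stood at 876 and 333 CPM in Leydig cells (51.2 and 7.24 times its level elsewhere) and Ctsl at 210 and 102, against 1902 and 3921 (Clu) and 902 and 1409 (Ctsl) in Sertoli barcodes. Fdx1 stood at 4.02 times its level elsewhere in the first library and 2.46 times in the second. Of the 112 genes, 8 are encoded by mitochondrial DNA, and a single cell supplied 46.0% and 75.3% of the mitochondrial UMIs of the chosen cells.

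Steroid-making cells depend on the nuclear receptor Nr5a1 (SF-1), which binds DNA at CAAGGTCA and CAAGGCCA. The 250 bases before the start of each gene in RefSeq's promoter table (GRCm38.p6) were searched for both motifs, on both strands. A match stood in 3.28% of 32851 promoters and in at least 1 promoter of 3.76% of 27025 genes. Among the genes described here it stood in 0 of 4 marker genes with an entry, in 1 of 8 independent Leydig genes and in 1 of 11 of the concentrated genes outside that set. Both matching promoters are shown because their genes went opposite ways between the libraries: Agt was higher in the high-fat library and Bhmt lower (Bhmt turned to a log2 ratio of 0.15 once free RNA was subtracted). Capitals mark the motif, which begins 216 bases before the Agt start at chr8:124569877-124569956 and 74 bases before the Bhmt start at chr13:93637789-93637868, both on the minus strand and written 5′ to 3′. A match is a description of the letters and not a site.
Agt: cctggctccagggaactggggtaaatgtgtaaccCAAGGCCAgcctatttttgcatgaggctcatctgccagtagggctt
Bhmt: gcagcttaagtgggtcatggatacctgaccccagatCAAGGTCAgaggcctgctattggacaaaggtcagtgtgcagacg

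The gene most concentrated in Leydig cells was listed as Jak3, a kinase known for signalling from cytokine receptors in lymphocytes. It took 4948 of the Leydig cell UMIs in the diet-unnamed library (8.67%) and 2909 in the high-fat library (2.48%). Jak3 UMIs were present in 24 of 24 and 47 of 49 cells. The level ran from 8.87 (median 372) to 2478 per 10000 in the first library and from 0 (median 169) to 1538 in the second. Other barcodes held 0.233 and 0.181 per 10000. Of lymphocyte genes, Ptprc, Cd3e, Il2rg and Il7r were at 0 UMIs in the Leydig cells of both libraries, where 0 UMIs allow up to 64.6 and 31.5 CPM. The lymphoid marker list summed to 0 and 6 UMIs. In the high-fat library these made 0.51 per 10000 (interval 0.19 to 1.12), against 0.37 elsewhere.

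The position of the gene bears on this count. In the GENCODE M21 annotation, whose versioned identifiers match 98.3% of those in each library, Insl3 lies inside Jak3 on the same strand. The last exon of Jak3 is identical to 1 of the 2 exons of Insl3 and covers 404 of its 623 exonic bases (64.8%). Insl3 itself was given 102 and 78 UMIs in the Leydig cells, so Jak3 UMIs were 48.5 and 37.3 times as many. From these counts the transcripts of both genes cannot be told apart, and the levels of Jak3 and Insl3 are uncertain.

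Jak3 counts, which the rule did not use but which may include transcripts of the marker Insl3, also marked barcodes that the rule missed. At 100 or more Jak3 UMIs per 10000, a threshold chosen after its values were seen, stood 20 of 24 and 33 of 49 Leydig cells and a further 5 and 20 barcodes. These 5 and 20 barcodes held 4 and 11 marker UMIs in all, at median depths of 1129 and 1326 UMIs. They carried Ptgds at 1103 and 1350 CPM and Aldh1a1 at 802 and 643, against 3.47 and 8.51 (Ptgds) and 2.70 and 4.03 (Aldh1a1) in all barcodes outside the chosen cells. The gap to other somatic barcodes was smaller. Sertoli barcodes held Ptgds at 499 and 657 CPM and Aldh1a1 at 272 and 183. Stroma barcodes held Ptgds at 29.1 and 24.3 and Aldh1a1 at 256 and 398. Hsd17b3 had 0 and 6 UMIs in the 5 and 20 barcodes, and Sult1e1 0 and 1. Conversely, 2 and 4 Leydig cells held fewer than 20 Jak3 UMIs per 10000, and the 3 cells chosen on Star alone had 1, 0 and 0 Jak3 UMIs.

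**Figure D4:**
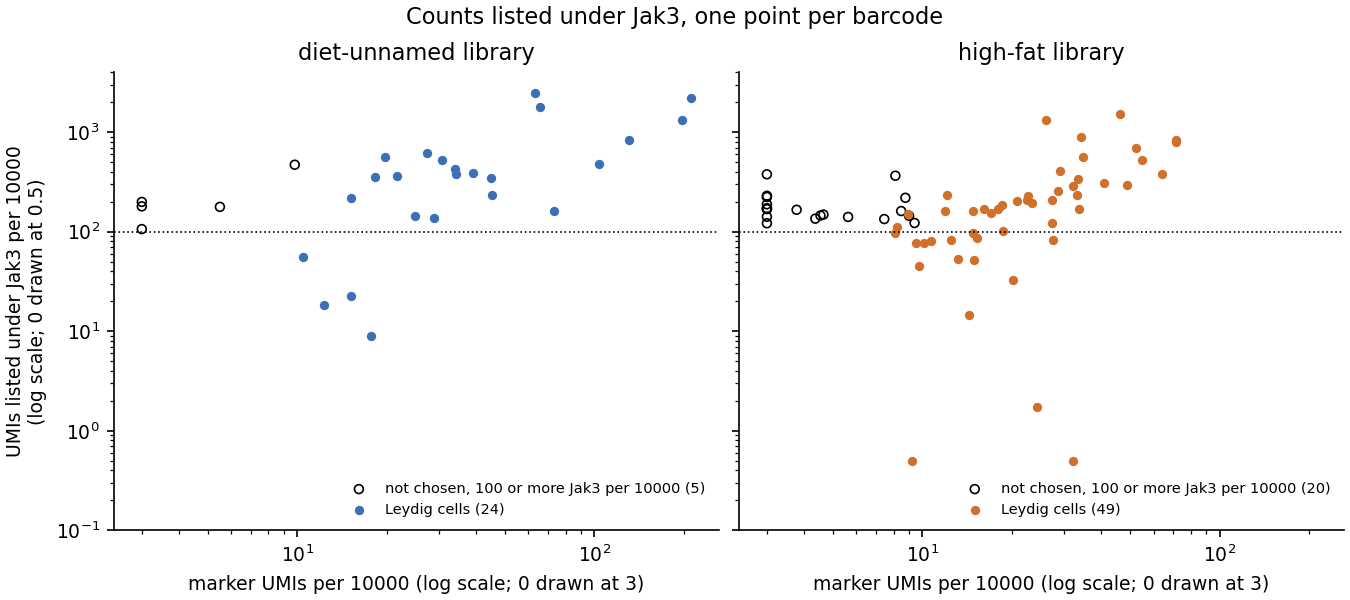
Each point is a barcode, with marker UMIs per 10000 on the horizontal axis and Jak3 UMIs per 10000 on the vertical axis (log scales; 0 drawn at 3 and at 0.5); filled points are Leydig cells, open points other barcodes at or above 100 Jak3 UMIs per 10000 (dotted line). The 5 and 20 open points lie above the line at few or no marker UMIs, and a few filled points lie far below it.

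Leydig cells were a larger share of the high-fat library. So were Sertoli barcodes, at 269 of 13805 against 412 of 12661, and stroma barcodes, at 138 against 167. Of the diet-unnamed library Leydig cells made 0.174% (exact Clopper-Pearson interval 0.111 to 0.259), and of the high-fat library 0.387% (0.286 to 0.511). The shares lay 0.213 percentage points apart (Newcombe interval 0.0865 to 0.350), at a ratio of 2.23 (1.34 to 3.79). Barcodes chosen by Jak3 instead gave 0.181% and 0.419%, a ratio of 2.31 (1.41 to 3.88). That choice is not a separate check, since 20 of its 25 and 33 of its 53 barcodes were Leydig cells already. Jak3 counts may also hold transcripts of the marker Insl3, and the threshold was chosen after its values were seen. Raising the rule to 4 marker UMIs, an alternative added after seeing the data, gave 0.123% and 0.190%, a difference of 0.0664 points. With 1 library per group, diet, dissociation, tissue sampling and the filter on barcodes cannot be told apart as sources of this gap.

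Within the Leydig cells, 3543 genes had at least 10 UMIs over both libraries. Of these, 842 (23.8%) were at least 2-fold higher in the high-fat library and 419 (11.8%) at least 2-fold lower, and the median gene had a log2 ratio of 0.19. The Leydig lists stood below that median. In the steroid synthesis list 6 of 12 measured genes were at least 2-fold lower and none higher, with a median log2 ratio of -1.14 (7 of the 12 are outside the marker rule, and these have a median of -1.52). The 6 lower genes include the marker genes Cyp17a1 (-2.26) and Hsd3b1 (-2.64), whose levels were selected on. In the adult Leydig list 8 of 11 were at least 2-fold lower and none higher, with a median of -1.57 (10 of the 11 are outside the marker rule, and these have a median of -1.72). Hsd17b3 had a log2 ratio of -2.32 (interval -3.83 to -0.97; 17 against 7 UMIs) and Sult1e1 one of -2.14 (-3.67 to -0.75; 15 against 7). Ptgds was at -1.87 (-2.08 to -1.65) and Aldh1a1 at -1.94 (-2.36 to -1.52). Tspo, a cholesterol-binding protein of mitochondria, had 4 and 6 UMIs, too few to place (-2.53 to 1.82).

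Germ-cell transcripts were higher instead. Each of 10 measured elongating spermatid markers was at least 2-fold higher in the Leydig cells of the high-fat library (median 2.07), and 6 of 10 round spermatid markers were (median 1.26), while the spermatocyte list stood at 0.00. Subtracting free RNA, estimated from these spermatid markers at the whole-library profile, moved the steroid synthesis median to -0.060 and the adult Leydig median to -0.42, beside an all-gene median of -0.15. Leaving out the cell with the most marker UMIs in each library moved the steroid synthesis median to -0.26 and the adult Leydig median to -1.03. The steroid synthesis median after the subtraction included marker genes that chose the cells, such as Star at 1.76 and Cyp11a1 at 0.47. Outside the marker rule it was -0.38 over 6 genes, and the adult Leydig median was -0.57 over 10, both below that of all genes.

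The cholesterol synthesis, cholesterol supply and fatty acid lists had medians of -0.84, -0.82 and -0.84 over 5, 3 and 12 genes, below that of all genes (0.19). Genes of the supply and fatty acid lists went both ways. With free RNA subtracted the medians were -0.074, -0.46 and -0.36, and that of cholesterol synthesis was no longer below that of all genes. Of 5 cholesterol synthesis genes none stood above the all-gene median before subtraction. Among them 1 was at least 2-fold lower, Msmo1 at -2.30 (interval -4.16 to -0.69). Apoe, the lipid-carrying apolipoprotein, was at -0.82 (-1.43 to -0.21) and Npc2, which moves cholesterol out of lysosomes, at -1.62 (-2.81 to -0.49). In the fatty acid list 6 of 12 genes were at least 2-fold lower and 4 at least 2-fold higher. The fatty acid transporter Cd36 was at -2.74 (13 against 4 UMIs) and the desaturase Scd2 at -1.74 (13 against 8). Acsl1, which activates fatty acids, was at 2.96 (1 against 16 UMIs), and Pnpla2, the lipase that opens lipid droplets, at 1.96 (3 against 24). Acsl1 and Pnpla2 were not concentrated in Leydig cells of the first library: their levels there were 17.5 and 52.6 CPM in Leydig cells, against 56.5 and 168 in other barcodes.

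Oxidative phosphorylation genes had a median of -0.49 over 39, with 6 at least 2-fold lower and none higher. Of all genes measured, 11.8% were at least 2-fold lower and 23.8% at least 2-fold higher. With free RNA subtracted the oxidative phosphorylation median was -1.85 over 34 genes. The antioxidant list had a median of -0.48 over 16, with 5 lower and none higher, and Gstm1 at -1.48 (-1.73 to -1.24). The endoplasmic reticulum stress list (median 0.04 over 12) lay close to the all-gene median. Among receptors and signalling genes, Prlr was at -1.14 (-2.30 to 0.02) and Crem, a transcription factor abundant in spermatids, at 1.79 (0.83 to 2.91).

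**Figure D5:**
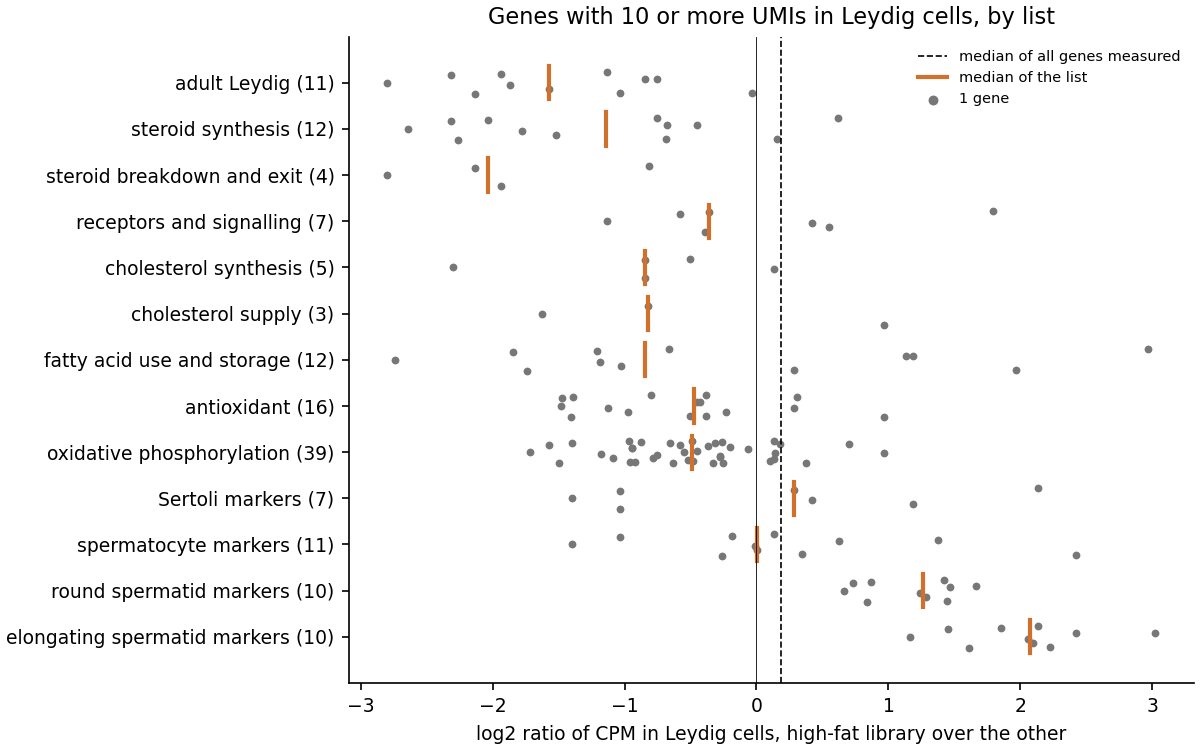
Each point is a gene with at least 10 UMIs in Leydig cells, placed by its log2 ratio of CPM (high-fat library over the other); orange bars are list medians, the dashed line is the median of all genes (0.19), and numbers in brackets are genes measured. The adult Leydig and steroid synthesis genes lie mostly to the left (medians -1.57 and -1.14) and the spermatid markers to the right (1.26 and 2.07).

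Agt, which encodes angiotensinogen, the precursor of angiotensin, was higher in the Leydig cells of the high-fat library, unlike most Leydig genes above. In the diet-unnamed library it was seen in 4 of 24 cells, with 10 UMIs in all and at most 4 in a cell. In the high-fat library it was seen in 32 of 49 cells, with 103 UMIs in all and at most 26 in a cell. After thinning to 1000 UMIs the shares were 4.17% and 46.9%, while 0.743% and 2.43% of Sertoli barcodes showed it unthinned. Stroma barcodes showed it in 11 of 138 and 30 of 167. Its per-cell level ran from 0 (median 0) to 21.6 per 10000 in the first library and from 0 (median 5.51) to 51.8 in the second, with overlapping ranges. Its level was 175 against 880 CPM, a log2 ratio of 2.33 (interval 1.39 to 3.43). Stroma barcodes went the same way at a lower level, with 38.8 CPM (interval 20.1 to 67.9) against 94.6 (67.3 to 129), and Sertoli barcodes held 6.04 (1.25 to 17.6) against 10.1 (5.06 to 18.1). All barcodes outside the chosen cells, pooled, went the opposite way, from 6.54 to 0.798 CPM. The log2 ratio of Agt lay between 1.91 and 3.49 under every alternative tried. The 3.49 came from subtracting free RNA, which was no check on its direction. That step raised genes rare in other barcodes by nearly the same amount, such as Star from 0.62 to 1.76.

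The other genes higher in Leydig cells than in all other barcodes pooled and highest in the high-fat library, by the naming rule, included Tmsb4x, Cst9, Jarid2, Lpp, Osgin1 and Camk1d. Tmsb4x, an actin-binding peptide, had 5 against 61 UMIs (log2 ratio 2.57, interval 1.27 to 4.25), and they came from 4 of 24 and 12 of 49 cells. Cst9, a cystatin, was at 0 against 27 UMIs in 7 of 49 cells, at least 4.39-fold higher when 3 counts stand for the 0. Without the cells richer in another somatic list it had 4 UMIs left, too few for a ratio. Jarid2, Lpp and Osgin1 had 5, 2 and 2 UMIs in the first library and 34, 19 and 19 in the second, so each rests on few counts. Sertoli barcodes held more of several of these genes than Leydig cells did. Tmsb4x stood there at 2407 and 2488 CPM against 87.6 and 521 in Leydig cells, Jarid2 at 1179 and 555 against 87.6 and 290, and Cst9, itself on the Sertoli marker list, at 336 and 3975 against 0 and 231. Lpp and Osgin1 were at 34.1 and 41.5 CPM in Sertoli barcodes of the high-fat library against 162 each in its Leydig cells. Camk1d, a calmodulin-dependent kinase gene, had 36 against 119 UMIs (log2 ratio 0.69, interval 0.14 to 1.27), at 631 and 1016 CPM against 994 and 1043 in Sertoli barcodes. Jarid2 turned direction when barcodes were chosen by Jak3, with a log2 ratio of -0.38.

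The lower end included Gm15772, Creg1, Mt3, Cd151, Ephx1, Ctsd and Serinc3. Creg1, a secreted lysosomal glycoprotein, had 25 UMIs in 9 of 24 cells against 3 in 3 of 49 (log2 ratio -4.10, interval -6.47 to -2.38). Mt3, a metallothionein, had 18 against 4 UMIs (-3.21, -5.23 to -1.60). Ctsd, the lysosomal protease cathepsin D, had 19 against 7 (-2.48, -3.97 to -1.16). Ephx1, the microsomal epoxide hydrolase, had 44 against 13 (-2.80, -3.81 to -1.88), and Serinc3, a membrane protein gene, had 60 against 23 (-2.42, -3.18 to -1.70). Sertoli barcodes held Creg1 at 489 and 604 CPM, against 438 and 25.6 in Leydig cells. In all other barcodes pooled, Creg1 and Ctsd were higher in the high-fat library, at 8.29 and 4.82 CPM against 4.61 and 2.89.

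Over all genes, without the demand for a higher level in Leydig cells, the extremes included genes with a wide gap in other barcodes too. Rpl26, a ribosomal protein gene, had 3 against 81 UMIs in Leydig cells, and in other barcodes it was at 34.0 against 740 CPM. Rpl35a, another such gene, had 2 against 40 UMIs, with 53.1 against 378 CPM elsewhere. At the low end Gm10036 was at 24 against 0 UMIs (at least 16.4-fold lower), with 157 against 0.352 CPM elsewhere, and Rps13-ps1 was at 23 against 0 (at least 15.7-fold lower), with 398 against 18.1. Lsm10 had 17 against 3 UMIs, with 914 against 43.3 CPM elsewhere. Ribosomal protein genes have near-identical copies, and how the authors' counting split reads between them is not given in the sources used here, so these values are uncertain. Spz1, a transcription factor gene of spermatogenesis, and 1700001P01Rik had 2 against 44 and 2 against 43 UMIs in Leydig cells and were higher by less elsewhere, at 267 against 365 and 173 against 238 CPM.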

How the data were processed

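Testis was profiled by droplet single-cell RNA sequencing in 2 libraries. The authors deposited whole-number counts of UMIs per gene and barcode, without normalisation, written by PISA 1.0 per the file headers. Cell Ranger 2.1.1 is named in the submitters' processing notes. The aligner, the annotation and the build were not given in the sources used here, and no coordinates come from the counts.

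Raw counts were summed over the chosen cells of each library and scaled to CPM. Levels carry exact Poisson intervals, shares Clopper-Pearson intervals, ratios exact conditional binomial intervals and the share difference a Newcombe interval, each at 95%. The intervals of levels and ratios were tested on simulated data, and those of shares and of the share difference were not. A count of 0 was set to 3 counts over the group for a ratio, which is then a bound. No test was made, since each group had 1 library. The samples were grouped by their titles. Genes with fewer than 10 UMIs were left out of counts of genes.

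The cells, the gene lists and the tests were chosen with earlier results of these data known. Named genes were the 6 marker genes; genes of the Leydig lists; the 15 genes most concentrated in Leydig cells of both libraries; and, among genes with at least 20 UMIs, no cell over 50% of a library's counts and an interval of the ratio that leaves out 1, the 8 highest and 8 lowest library ratios among concentrated genes and the 5 at each end among all genes. Some of these genes are not reported here. Genes of the fatty acid, antioxidant and dissociation lists and the per-cell Jak3 threshold were picked after their values were seen. Scrublet's own threshold called 652 and 0 barcodes, so the top 6% of scores (817 and 735) were taken as doublets, and called cells were kept. Alternatives varied the rule, depth, gene filter, doublets, free RNA, thinning and single cells; those on 4 marker UMIs, Star-only cells, Jak3, doublet scores, lists without marker genes after subtraction and the richest cells of the Hsd3b groups were added after seeing the data.

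The tools were scanpy 1.11.5, pandas 2.3.3, scipy 1.17.1, numpy 2.4.6 and matplotlib 3.10.9 under Python 3.11.15.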

Additional observations from a re-analysis of the deposited data

Results flagged for a closer look

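For 14 named genes the Leydig cells and all other barcodes went opposite ways between the libraries, with intervals on opposite sides of no difference; the difference between the contrasts was not tested, since each group had 1 library. Agt had a log2 ratio (high-fat library over the other) of 2.33 in Leydig cells and -3.03 in other barcodes pooled. Its level in stroma barcodes was also higher in the high-fat library, at 38.8 (interval 20.1 to 67.9) against 94.6 CPM (67.3 to 129), intervals that barely overlap. Sertoli barcodes held 6.04 against 10.1 CPM, with intervals that overlap widely. Jarid2 was also higher in Leydig cells and lower elsewhere, at 1.73 against -1.10. Ptgds was at -1.87 in Leydig cells and 1.29 elsewhere, and Aldh1a1 at -1.94 and 0.58, where Sertoli barcodes, a more frequent group in the high-fat library (412 against 269 barcodes), also carried both genes. Akr1cl was at -1.41 and 1.12, Gsta3 at -1.37 and 1.43, Fxyd1 at -2.14 and 0.48, Fabp3 at -1.02 and 0.61, Apoc1 at -0.73 and 0.49, and Tmem176a at -1.04 and 1.04. Among genes of the membrane and lysosome, Cd151 was at -2.81 and 2.70, Creg1 at -4.10 and 0.85, Ctsd at -2.48 and 0.74, and Serinc3 at -2.42 and 0.44. Spermatid markers in the Leydig cells stood at 36.8% and 90.0% of their whole-library level. With the free RNA estimated from them subtracted, Apoc1, Fabp3 and Tmem176a turned to 0.42, 0.12 and 0.11, and the other 11 genes kept their direction. The subtraction raised the ratio of each of the 14 genes, so it was no check on the direction of Agt.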

How the results depend on the processing

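No paired analysis was possible because each group had 1 library. Of the summary values under all alternatives, 165 stayed within the interval of the reported value (or within 1.5 times a count) and 25 moved outside it. With 16 or more marker UMIs per 10000 the share in the high-fat library was 0.253%, and 559 genes were at least 2-fold higher there. Among barcodes of at least 2000 UMIs the shares were 0.0699% and 0.225%, 72 genes were at least 4-fold higher than elsewhere, and the adult_leydig median was -2.38. With 4 or more marker UMIs the high-fat share was 0.190% and the difference 0.0664 points. Without the cell richest in marker UMIs the steroid_synthesis median was -0.26. With free RNA subtracted the steroid_synthesis, adult_leydig and oxidative_phosphorylation medians were -0.060, -0.42 and -1.85, the steroid_synthesis and adult_leydig medians without marker genes were -0.38 and -0.57, 303 genes were at least 2-fold higher, and Apoc1 (0.42), Bhmt (0.15), Fabp3 (0.12), Hsd3b6 (0.39) and Tmem176a (0.11) reversed; Ass1, Cyp11a1, Prlr and Vcam1, whose intervals include no difference, changed sign. Thinned to 1000 UMIs, cells gave 45 genes at 4-fold, 282 higher and 173 lower at 2-fold, and an antioxidant median of -0.16. With at least 20 UMIs a gene these counts were 52, 353 and 149, since fewer genes were counted. With at least 1 UMI they were 992, 1312 and 781, since more genes were counted. With barcodes chosen by Jak3, Jarid2 (-0.38) reversed. Other causes were not tested. Precision was limited by 57076 and 117106 UMIs in 24 and 49 cells, by 1 library per group, and by counts that may be split between Jak3 and Insl3 and between near-identical copies.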
